A study of Homo sapiens with 14 samples.

Results

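The TEAD family and YAP pathway loci are 9 genes: TEAD1, TEAD2, TEAD3 and TEAD4, which encode the 4 TEAD transcription factors, and YAP1, WWTR1, LATS1, LATS2 and AMOT. They were chosen by name out of 20007 protein-coding genes of GENCODE release 44, and each was examined as its hg38 gene body with 60 kb added on each side. The 9 windows cover 2034 kb. Chromatin immunoprecipitation and sequencing (ChIP-seq) had been carried out in WIBR3 cells, a widely used line of human embryonic stem cells (hESCs). WIBR3 was kept either in conventional primed medium with serum and FGF2 or in naïve 5i/L/A medium, which holds inhibitors of MEK, GSK3, BRAF, SRC and ROCK together with LIF and activin A. Mouse fibroblasts served as feeders in both media, and the naïve cells had been reset from primed cells of the same line. The 14 samples were 4 input libraries and 10 immunoprecipitations, with 1 library per state for BRG1, BAF155 and BRM and 2 for SOX2.

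BRG1 (SMARCA4) and BRM (SMARCA2) are the alternative ATPases of the BAF chromatin remodelling complex, BAF155 (SMARCC1) is a core subunit, and SOX2 is a pluripotency transcription factor. The deposited peak lists differed in length. BRG1 had 57884 naïve and 15611 primed peaks, BAF155 had 62338 and 58352, BRM had 17413 and 167, and SOX2 had 1940 and 9290. The first and second SOX2 list of a state had the same coordinates throughout and stand for 1 sample, so every group held a single sample and no difference between the states has a replicate check. Shares of regions are given with exact (Clopper-Pearson) 95% intervals that cover counting error only, and the regions of 1 library are not replicates of a state. Read depth could not be read from the peak lists. The supplement of the study reports somewhat more total reads for primed than for naïve BRG1 and BAF155. It also reports more non-redundant uniquely mapped reads for the primed libraries, and for BRG1 that gap is wider than the gap in total reads. BAF regions near 6 naïve and 6 primed marker genes were counted as a check of the labels. Naïve-only regions outnumbered primed-only ones at 6 of 6 naïve markers, beside 66.2% of all genes, so a naïve excess alone is a weak check. Primed-only regions outnumbered naïve-only ones at 4 of 6 primed markers, beside 21.2% of all genes, with CD24 and SALL2 the other way.

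TEAD factors bind DNA but have little activity without a partner, and YAP (YAP1) and TAZ (WWTR1) are the coactivators that they recruit. The Hippo kinases LATS1 and LATS2 phosphorylate YAP and TAZ and keep them out of the nucleus, and the angiomotin AMOT, a protein of cell junctions, binds YAP. In the early embryo this pathway separates outer cells, in which TEAD4 and YAP turn on trophectoderm genes, from inner cells.

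The letters bound by TEAD factors (CATTCC, searched on both strands) were looked for in 200 bp of hg38 centred on the main transcription start site (TSS), the MANE Select start. They were found at 4 of the 9 genes, namely TEAD1, TEAD3, TEAD4 and LATS2, and at 6.41% of the 20007 protein-coding genes. TEAD4 held 3 copies, TEAD1 held 2 and TEAD3 held 2. Over all genes, 71 (0.355%) had at least 2 copies and 6 (0.0300%) had at least 3. These cut-offs are the copy numbers found at the TEAD promoters themselves, so the shares are a description and not a test. The stretches of 30 bases are shown because the promoters of 3 of the 4 TEAD genes carry letters that TEAD proteins bind, and because all 4 lie in BAF regions of both states. Capitals mark CATTCC or its complement GGAATG, and each line is written 5′ to 3′ on the strand of the gene.
TEAD4 promoter, chr12:2959384-2959413, plus strand: CATTCCagccctCATTCCgcgCATTCCagc
TEAD1 promoter, chr11:12674408-12674437, plus strand: CATTCCtgtcctCATTCCgaacattcttag
TEAD3 promoter, chr6:35496985-35497014, minus strand: CATTCCgcaCATTCCggccagccccctccc
LATS2 promoter, chr13:21061560-21061589, minus strand: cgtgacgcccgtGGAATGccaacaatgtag
Counting the first transcribed base as 1 and the base before it as -1, the copies began at -13, -1 and 9 in TEAD4 and at -13 and -1 in TEAD1. In TEAD3 both copies lay within the transcribed part, at 66 and 75. The first 2 copies thus had the same positions in TEAD4 and TEAD1. A match of 6 letters is a description of the sequence and shows no binding, and TEAD binding was not measured here.

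The sites of SOX2 were the other sequences on which the comparison turned. Each line below gives 200 bp of the plus strand of hg38 centred on the summit of a SOX2 peak. Capitals mark SOX letters (CATTGT or CTTTGT), an octamer variant (ATGCTAAT), KLF letters (GGGTGTGGC, GGGCGTGGC, GGGCGGGGC or GGGTGGGGC), and TFAP2 letters (GCCNNNGGC), all on both strands. Copies of CATTCC, the octamer ATGCAAAT and ZIC letters (CCTGCTG) would also have been capitalised and were not found in these 6 windows.
TEAD4 intron, naïve SOX2, chr12:2988582-2988781: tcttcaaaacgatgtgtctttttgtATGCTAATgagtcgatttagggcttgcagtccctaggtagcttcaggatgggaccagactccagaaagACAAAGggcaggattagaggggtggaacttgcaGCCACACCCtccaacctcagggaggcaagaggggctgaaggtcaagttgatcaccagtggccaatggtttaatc
TEAD4 intron, primed SOX2, chr12:2963798-2963997: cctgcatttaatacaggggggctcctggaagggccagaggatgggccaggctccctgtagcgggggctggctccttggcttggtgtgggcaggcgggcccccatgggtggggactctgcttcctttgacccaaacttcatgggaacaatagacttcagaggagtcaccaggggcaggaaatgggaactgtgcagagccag
TEAD1 intron, primed SOX2, chr11:12680747-12680946: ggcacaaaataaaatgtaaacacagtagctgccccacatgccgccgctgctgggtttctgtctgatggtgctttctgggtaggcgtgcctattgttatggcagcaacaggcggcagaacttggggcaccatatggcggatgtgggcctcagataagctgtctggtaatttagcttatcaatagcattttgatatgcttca
YAP1 intron, primed SOX2, chr11:102197776-102197975: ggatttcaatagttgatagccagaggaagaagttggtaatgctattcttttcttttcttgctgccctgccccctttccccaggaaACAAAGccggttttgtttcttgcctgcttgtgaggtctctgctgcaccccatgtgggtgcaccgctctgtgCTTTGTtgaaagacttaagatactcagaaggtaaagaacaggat
WWTR1 intron, SOX2 of both states (naïve summit), chr3:149574381-149574580: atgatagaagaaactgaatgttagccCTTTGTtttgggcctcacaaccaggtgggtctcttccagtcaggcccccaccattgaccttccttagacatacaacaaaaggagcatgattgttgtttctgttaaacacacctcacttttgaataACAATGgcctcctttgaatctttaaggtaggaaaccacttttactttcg
Upstream of AMOT, SOX2 of both states (naïve summit), chrX:112851433-112851632: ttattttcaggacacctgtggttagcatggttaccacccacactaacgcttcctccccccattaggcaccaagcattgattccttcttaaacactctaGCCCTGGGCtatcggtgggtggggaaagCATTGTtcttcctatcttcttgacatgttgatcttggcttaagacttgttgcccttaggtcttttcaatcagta
The naïve site in TEAD4 held SOX letters, which were present in 59.1% of all 1940 naïve SOX2 windows, and KLF letters, which were present in 3.76%. It also held the octamer variant, which was added to the search after this sequence had been read and was present in 5.26% of the naïve SOX2 windows. The primed site in TEAD4 held none of the letters searched, and the strongest primed site of TEAD1 held none either. Only CATTGT and CTTTGT were searched as SOX letters, so other forms of a SOX site would not have been marked. The lack of capitals thus does not show that these sites lack a SOX match. SOX letters were present in 60.6% of all primed SOX2 windows and in 8 of the 13 at these genes. YAP1 and WWTR1 held 2 copies of the SOX letters each, and AMOT held 1 copy together with TFAP2 letters.

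To compare the states, BRG1 and BAF155 peaks of each state were merged into BAF regions. A region with a partner in the other state, by at least 25% of either region, was called common, and the rest were called naïve-only or primed-only. The 9 windows held 175 regions, of which 86 were naïve-only, 42 primed-only and 47 common. Naïve-only regions made up 67.2% of the state-specific ones, beside 61.4% over the genome (48336 naïve-only and 30335 primed-only) and 64.0% over the windows of all protein-coding genes with each region counted once. As a set the 9 genes thus lay near the background, while single members differed widely.

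TEAD4 had more naïve-only than primed-only regions, 17 against 5, with 5 common ones. Naïve-only regions were 77.3% of its state-specific regions (interval 54.6 to 92.2%). The window held 18 naïve BRG1 and 17 naïve BAF155 peaks, against 2 and 10 primed ones. TEAD4 ranked high in naïve-only regions per 100 kb of window, with 8.44 beside a median of 2.43 over all genes, and 8.02% of genes had a higher value. It was also above the median in primed-only regions, with 2.48 per 100 kb beside 0.912. The study gives TEAD4 as an example of a gene near naïve-specific enhancers, which it found with these BRG1 and BAF155 data. The naïve excess and rank of TEAD4 therefore describe a gene already picked out from these data and are no independent finding.

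**Figure D1:**
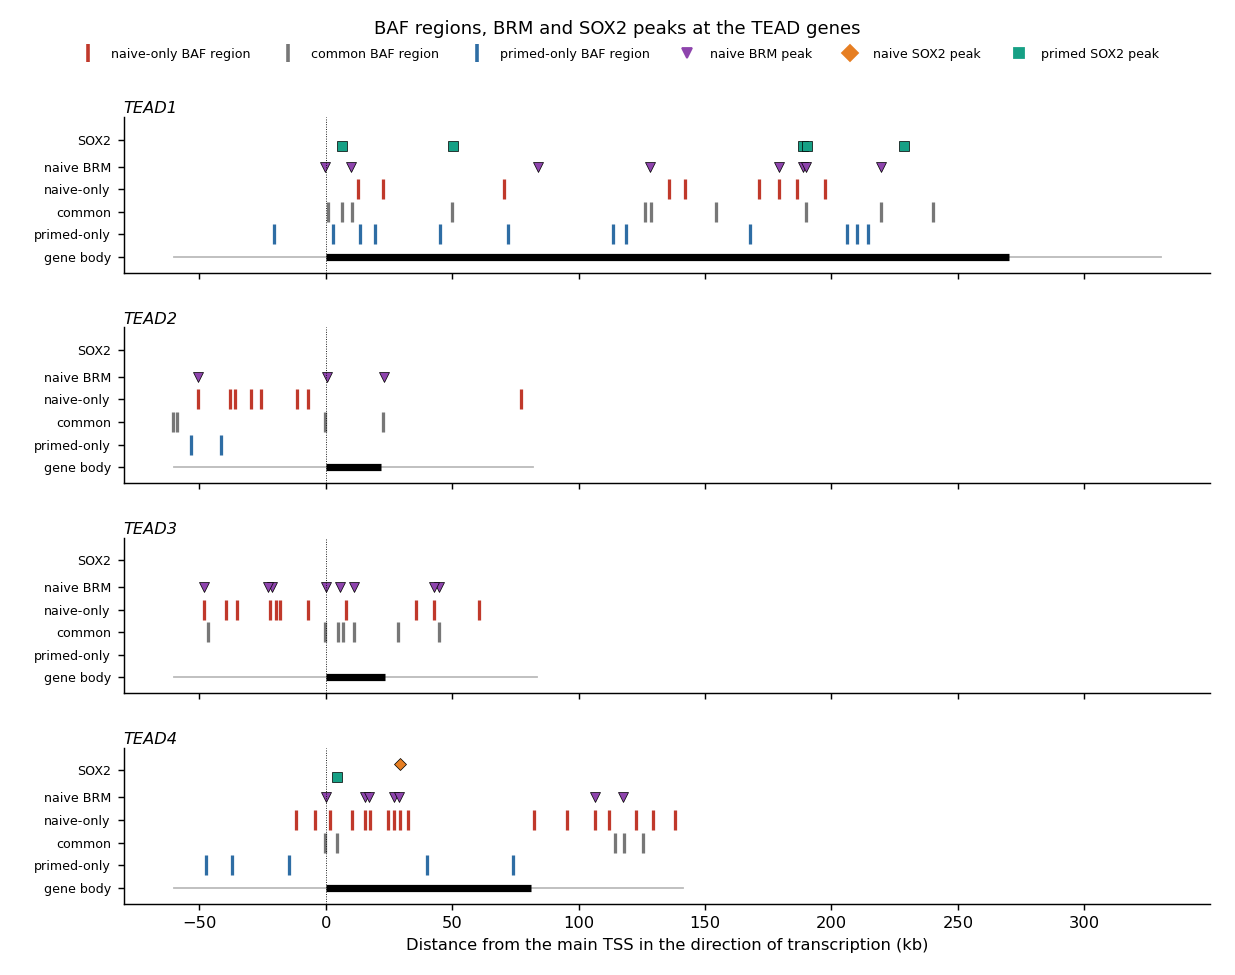
Regions and peaks in the 4 TEAD windows by distance from the main TSS (x axis, kb, direction of transcription to the right); the black bar is the gene body and the grey line the window. In TEAD4, 8 naïve-only regions lie in the first 33 kb of the gene, TEAD3 has none that is primed-only, and TEAD1 holds 12 primed-only regions and 5 primed SOX2 peaks.

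Within the TEAD4 gene, 8 naïve-only regions lay in introns between 1.83 and 32.7 kb from the TSS, and 4 of them overlapped a naïve BRM peak. These 4 were centred at 15.4, 17.6, 26.9 and 29.3 kb. The folds of their BRM peaks over input, as given by the authors' peak caller, were 3.52, 2.83, 2.83 and 2.95, beside a median of 3.27 over the BRM list. Another naïve-only region with BRM lay 106 kb from the TSS, beyond the 3′ end of the gene, with a BRM fold of 3.71. The 2 remaining BRM peaks were in common regions, at the TEAD4 promoter and at a promoter of TSPAN9, the next gene downstream. At least 5 naïve-only regions with BRM were present in 2.68% of all windows and in 1 of the 9 here, TEAD4, a count whose threshold was set after its value was seen.

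The region centred 29.3 kb inside TEAD4 (chr12:2988225-2989095, 871 bp) held a naïve SOX2 peak and a BRM peak. It was 1 of the 86 naïve-only regions with naïve SOX2, beside 638 of 48336 (1.32%) over the genome. Its SOX2 peak had a fold of 9.16 beside a list median of 7.26, and 27.5% of the naïve list was higher. This is the site with SOX, KLF and octamer variant letters shown above. A naïve-only region with both BRM and SOX2 was found in 2.75% of all windows, and 270 of the 48336 naïve-only regions of the genome (0.559%) were of this kind.

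On the primed side, TEAD4 had 5 primed-only regions, 2 in its introns at 39.8 and 73.8 kb and 3 upstream. The upstream region at -37.2 kb, in an intron of the neighbouring gene TULP3, was the only one with both BRG1 and BAF155 peaks and had the highest fold, 4.29. No primed-only region of TEAD4 overlapped a SOX2 peak. The single primed SOX2 peak of the window lay 4.53 kb into the gene in a common region. Its fold was 4.56, and 90.6% of the primed list was higher.

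TEAD1, the most widely expressed family member, had 9 naïve-only and 12 primed-only regions with 10 common ones, a naïve-only share of 42.9% (21.8 to 66.0%). The odds ratio of naïve-only regions for TEAD4 over TEAD1 was 4.53 (95% interval 1.21 to 17.0, Woolf). It was above 1 in 11 of 11 alternatives, but the interval included 1 in 3 of them. With BAF155 peaks alone it was 2.89 (0.79 to 10.6), with lists of equal length 3.43 (0.887 to 13.3) and within the gene bodies 4.89 (0.822 to 29.1). The lower limit was barely above 1 with −log10 q of at least 3 (1.001), 50% overlap of both regions (1.03) and flanks of 20 kb (1.05). The alternatives recount the same peaks, and counting any shared base as overlap left the counts unchanged. Of the 3 paralogues taken singly, only TEAD1 had an interval without 1. The naïve-only region of highest fold, 4.04, was at 179 kb and overlapped BRM, and the primed-only region of highest fold, 4.02, was at 72.2 kb. TEAD1 is also the longest gene of the family, with a body of 270 kb, and its window has no other protein-coding gene, whereas the TEAD4 window overlaps TULP3 and TSPAN9.

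The sites of TEAD1 with SOX2 were all primed. There were 5 primed SOX2 peaks and 0 naïve ones, beside 42.6% and 13.2% of all windows that held at least 1 peak. All 5 were inside the gene, at 6.32, 50.4, 189, 190 and 229 kb, with folds from 5.67 to 11.2 beside a list median of 6.73. Of these, 4 lay in 3 common BAF regions and 1 lay outside any BAF region. At least 3 common regions with primed SOX2 were present in 1.76% of all windows, a threshold again set after the value was seen. Such a count depends on window length, which was 390 kb for TEAD1. Per 100 kb TEAD1 had 1.28 primed SOX2 peaks, and 8.44% of genes had a higher density. TEAD1 also had 8 naïve BRM peaks, of which 6 were in common regions, 1 in a naïve-only region and 1 outside the BAF regions.

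TEAD2, which is highly expressed in early embryonic cells, had 8 naïve-only, 2 primed-only and 4 common regions, a naïve-only share of 80.0% (44.4 to 97.5%). Its window is crowded, with 5 other protein-coding genes, and no state-specific region lay inside TEAD2 itself. The naïve-only region of highest fold, 5.42, was at -50.7 kb in an intron of KASH5, a meiotic gene, and overlapped a BRM peak with a fold of 4.22. The highest fold of its primed-only regions was 2.74, in another intron of KASH5. The window had no primed BRG1 peak, although a common region at its upstream edge has one just outside the window.

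TEAD3, a family member prominent in placenta, had 11 naïve-only, 0 primed-only and 7 common regions. Its share was 100% with a lower limit of 71.5%. Of the 11, 10 lay in the flanks and 1 in an intron of TEAD3. The 2 of highest fold were upstream, at -48.3 kb with 4.63 and at -22.1 kb with 3.75, and both overlapped naïve BRM peaks. TEAD3 had the highest BRM density of the 9 genes, with 8 peaks or 5.58 per 100 kb beside a median of 0.777 over all genes, and 4.07% of genes had a higher density. TEAD2 and TEAD3 had no SOX2 peak in either state.

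The balance of the states in TEAD4 did not differ from that of its paralogues together beyond counting error. TEAD1, TEAD2 and TEAD3 had 28 naïve-only and 14 primed-only regions, a share of 66.7% (50.5 to 80.4%), and the odds ratio of TEAD4 over them was 1.70 (0.519 to 5.56), a log2 of 0.77 (-0.95 to 2.48). Against TEAD2 it was 0.85 (0.135 to 5.37), and against TEAD3, with 0.5 added to each count, 0.138 (0.00696 to 2.75). Both intervals include 1 and are wide, so a difference of either sign was not detectable with these counts. TEAD4 had 5 naïve-only regions with BRM, TEAD1 had 1, TEAD2 had 1 and TEAD3 had 3. In BRM peaks TEAD4 was not the highest, with 7 or 3.48 per 100 kb against 8 or 5.58 in TEAD3. The site with naïve SOX2 and BRM in a naïve-only region was found in TEAD4 and in none of its paralogues. Only 2.75% of all windows held such a site, so its absence from 3 genes is the usual case.

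**Figure D2:**
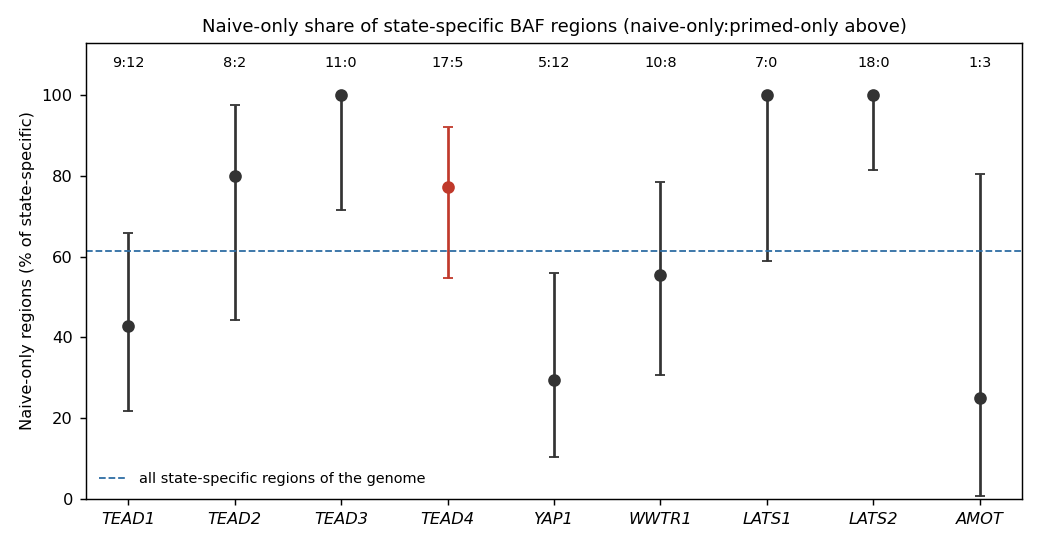
Naïve-only share of state-specific BAF regions (y axis, %) for the 9 genes, with 95% Clopper-Pearson intervals and the counts above; the dashed line is the share over the genome, 61.4%. TEAD3 and LATS2 lie above the line with their whole interval, YAP1 lies below it, and the other 6 intervals include it.

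Of the coactivators, YAP1 had 12 primed-only, 5 naïve-only and 2 common regions, a naïve-only share of 29.4% (10.3 to 56.0%). With BRG1 peaks alone YAP1 had 5 naïve-only and 4 primed-only regions (55.6%), beside a genome share of 90.1% in that setting. In primed-only regions per 100 kb it reached 4.94 beside a median of 0.912, and 0.755% of genes were higher. More primed-only than naïve-only regions were found in 21.2% of all windows and in 3 of the 9 here (TEAD1, YAP1 and AMOT). The primed-only regions of YAP1 formed a group of 4 between 3.92 and 10.0 kb and a group of 5 between 76.6 and 98.9 kb from the TSS, with 3 more beyond the gene. The highest fold among them, 5.51, was at 87.5 kb, while the highest among the 5 naïve-only regions was 2.93. Folds of the states come from different libraries, with a genome median of 3.18 for primed-only and 2.92 for naïve-only regions.

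Primed SOX2 occupied 3 of these primed-only regions, at 5.37, 87.4 and 98.6 kb, and 1 more peak lay in the common region of the promoter, 1.34 kb from the TSS. The 4 folds were 9.86, 11.6, 8.93 and 7.60, all above the list median of 6.73. All 3 primed-only regions with SOX2 had both BRG1 and BAF155 peaks. In all 9 windows 6 of the 42 primed-only regions had both, beside 11.6% over the genome. At least 3 primed-only regions with SOX2 were present in 1.00% of all windows, a threshold set after the value was seen. This count too depends on window length. Per 100 kb YAP1 had 1.65 primed SOX2 peaks, and 3.17% of genes had a higher density. Over the genome, 13.5% of primed-only regions overlapped a primed SOX2 peak. YAP1 had no naïve SOX2 peak and 2 naïve BRM peaks, at its promoter and in a naïve-only region 177 kb from the TSS.

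WWTR1, which encodes TAZ, was mixed, with 10 naïve-only, 8 primed-only and 7 common regions and a share of 55.6% (30.8 to 78.5%). Its strongest feature was a SOX2 site in an intron, 83.5 kb from the TSS, that was present in both states. The fold was 17.6 in the naïve list, where 2.47% of peaks were higher, and 21.8 in the primed list, where 1.12% were higher. The summits were 11 bp apart, and the BAF region at the site was common. A second naïve SOX2 peak lay at 81.8 kb, at an internal promoter, with a fold of 10.0 and no primed peak. A primed SOX2 peak without a naïve partner was at -12.9 kb, at another promoter of WWTR1, with a fold of 9.02. The state-specific regions of highest fold were a naïve-only region at 80.1 kb with 3.58 and BRM, and a primed-only region at 121 kb with 3.47.

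**Figure D3:**
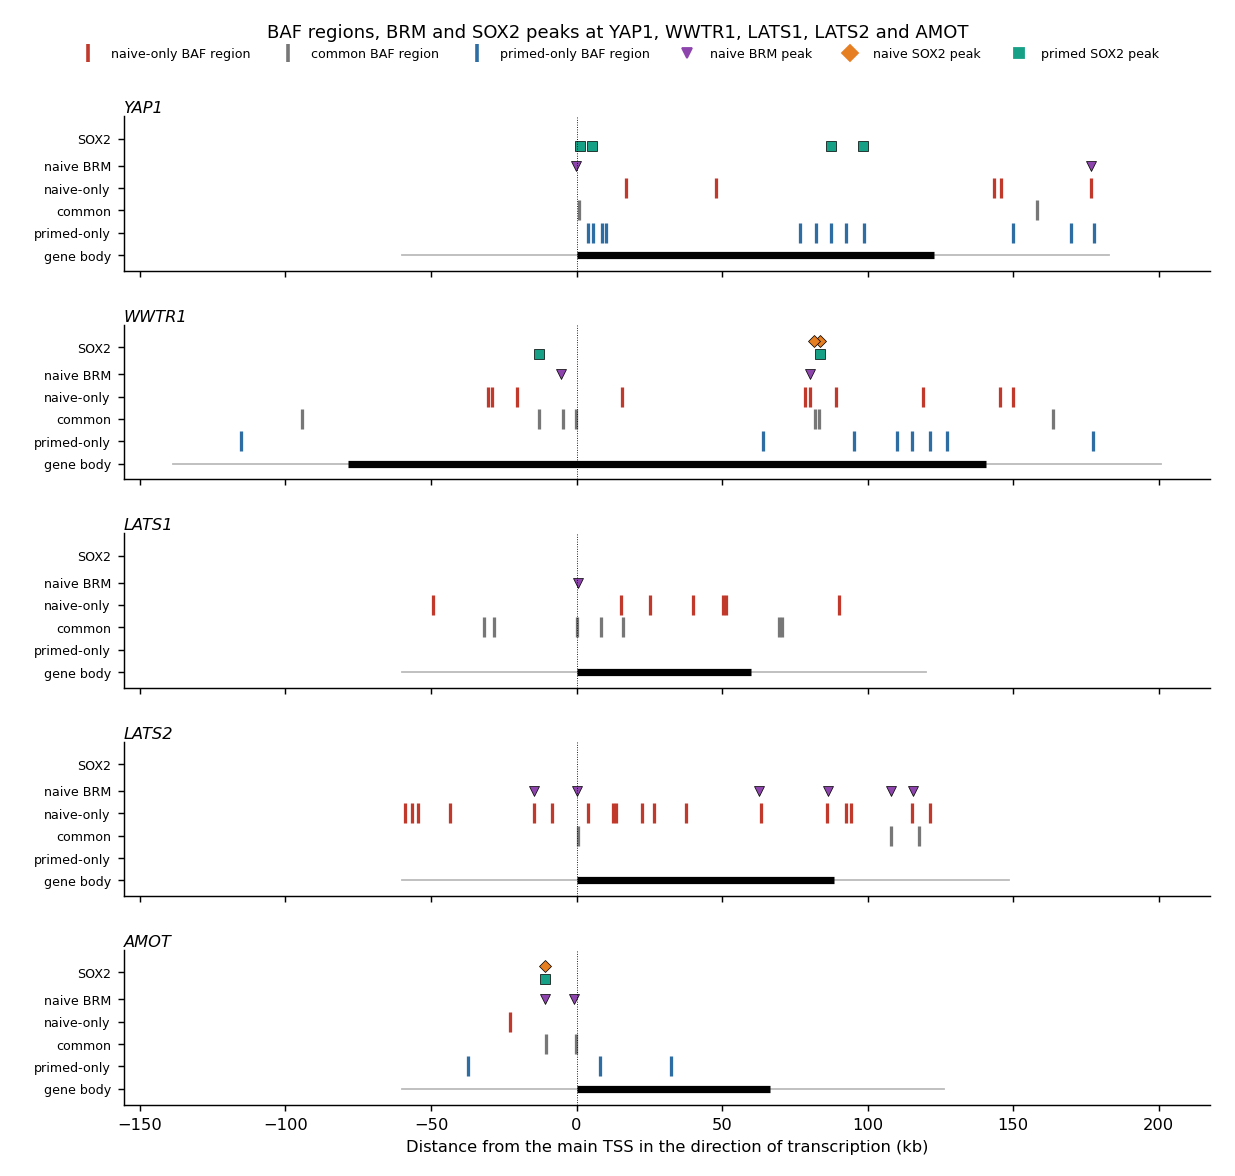
The same map for YAP1, WWTR1, LATS1, LATS2 and AMOT, by distance from the main TSS (x axis, kb); the WWTR1 gene body extends upstream of the main TSS through other transcripts. YAP1 shows 12 primed-only regions, LATS1 and LATS2 show none, and the SOX2 sites of both states in WWTR1 and upstream of AMOT stand above each other.

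The kinase genes carried no primed-only region. LATS2 had 18 naïve-only and 3 common regions, a share of 100% with a lower limit of 81.5%, and with 8.63 naïve-only regions per 100 kb it was the highest of the 9. No primed-only region was found in 22.0% of all windows and in 3 of the 9 here (TEAD3, LATS1 and LATS2), and no primed-only region beside at least 7 naïve-only ones was found in 6.28% and in the same 3, a threshold set after the values were seen. LATS2 had 6 naïve BRM peaks, 4 of them in naïve-only regions. The naïve-only region of highest fold, 3.87, lay in an intron 63.3 kb from the TSS and was 2336 bp wide, and its BRM peak had a fold of 4.04. The promoter was occupied in both states, with folds of 4.50 for primed and 2.84 for naïve BAF155, beside list medians of 3.28 and 2.89.

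LATS1 had 7 naïve-only and 7 common regions, a share of 100% with a lower limit of 59.0%. Its naïve-only regions had folds from 2.76 to 2.97, the highest at 15.2 kb, and none had BRM. Their median fold, 2.85, was the same in LATS2 and was 2.92 for naïve-only regions over the genome. The LATS1 region at 15.2 kb overlapped the edge of a common region with a primed BAF155 peak. When any shared base counted as overlap, LATS1 had 6 naïve-only and 0 primed-only regions. The LATS1 promoter was strong in both states, with folds of 6.25 for naïve and 4.83 for primed BRG1 and 6.41 and 5.73 for BAF155. Naïve BRM there had a fold of 5.91, and 1.26% of the BRM list was higher. Neither kinase gene had a SOX2 peak in either state. When only peaks with a fold of at least 3 were kept, LATS1 had 1 naïve-only and 4 primed-only regions, LATS2 had 7 and 2, and TEAD3 had 6 and 3, so the absence of primed-only regions did not hold at that threshold. With −log10 q of at least 3, LATS1 had 2 and 2, LATS2 had 4 and 2, and TEAD3 had 3 and 3. When a partner had to share at least 50% of both regions, they had 9 and 2, 19 and 1, and 14 and 3, and with flanks of 100 kb LATS2 had 21 and 2. The fold threshold moved the share over the genome from 61.4 to 43.5%.

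AMOT, on chromosome X, had few regions, with 1 naïve-only, 3 primed-only and 2 common ones and a share of 25% (0.631 to 80.6%). The naïve-only region had a fold of 2.74 at -22.9 kb, and the highest primed-only fold was 3.28, in an intron at 32.6 kb. Its intergenic SOX2 site 10.7 kb upstream of the TSS was present in both states, with folds of 8.87 and 8.86 and summits 60 bp apart. The common BAF region around it had BRG1 and BAF155 peaks of both states and a naïve BRM peak. A SOX2 site shared by both states was found in 6.44% of all windows and in 2 of the 9 here, WWTR1 and AMOT.

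All 9 main promoters were occupied by BAF subunits in both states. Within 1 kb of the main TSS, naïve BRG1 was found at 9 of 9 genes (61.7% of all genes), naïve BAF155 at 9 (61.8%), primed BAF155 at 9 (69.1%) and primed BRG1 at 7 (29.8%), with TEAD2 and AMOT without it. A common BAF region spanned all 9 main promoters (61.1% of all genes), and none of the 86 naïve-only or 42 primed-only regions lay at one. The state-specific regions were in introns (50 of 86 and 34 of 42), between genes (23 and 5), at other promoters (12 and 2) and in exons (1 and 1).

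Naïve BRM was present at 8 of the 9 promoters, beside 17.4% of all genes and 26.7% of the genes with a common BAF region at their TSS. WWTR1 was the one without it, and its nearest BRM peak lay 5.37 kb upstream. Except at LATS1 the BRM folds at the promoters were low, from 2.82 to 3.27. No SOX2 peak lay within 1 kb of a main TSS in either state (0.2% of all genes in the naïve list and 3.04% in the primed list).

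Naïve BRM was found in all 9 windows (70.2% of all windows), with 39 peaks in total. Of these, 17 lay in naïve-only and 21 in common BAF regions, 1 lay outside and none lay in a primed-only region. The primed BRM list, with 167 peaks, had no peak in any of the 9 windows (0.615% of all windows held one). With a primed list of this length no difference in BRM between the states could be measured at these genes.

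**Figure D4:**
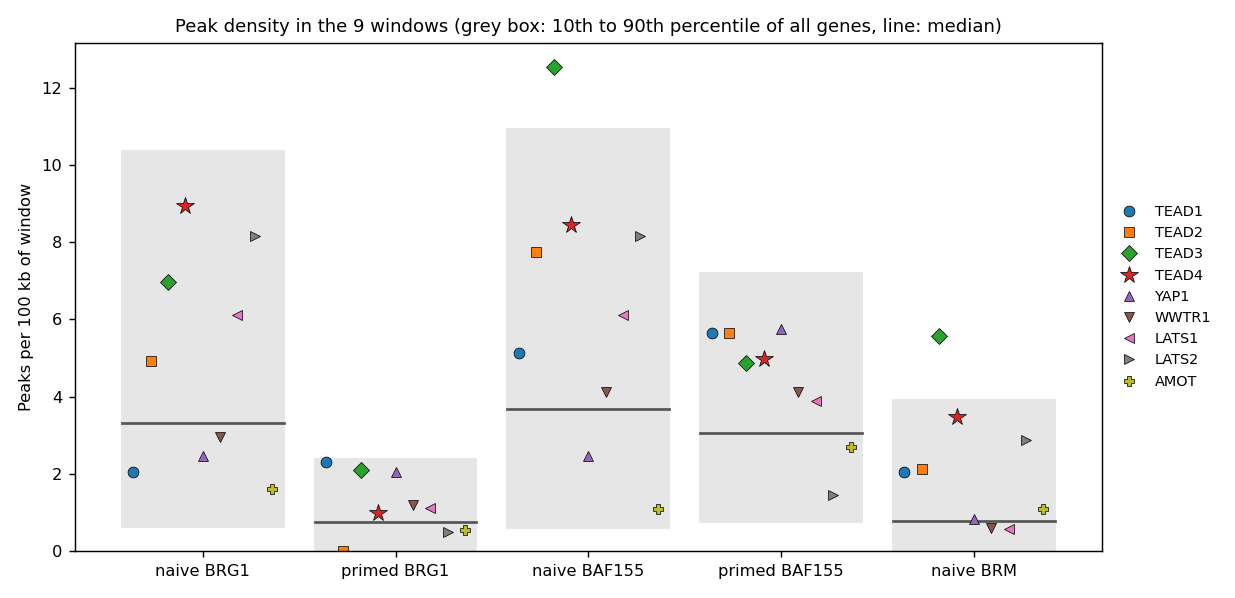
Peaks per 100 kb of window (y axis) in 5 lists for the 9 genes; the grey box spans the 10th to 90th percentile of all protein-coding genes and the line is their median. TEAD3 stands above the box for naïve BAF155 and BRM, TEAD4 and LATS2 lie in the upper part of the naïve BRG1 box, and LATS2 lies below the median for primed BAF155.

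The unequal lists bear on the balance of the states. Of the 42 primed-only regions, 35 rested on BAF155 alone and 6 had both subunits (11.6% over the genome), and 34 of the 86 naïve-only regions had both subunits (40.5% over the genome). With BAF155 peaks alone, where the lists of the states were of similar length, TEAD4 had 13 naïve-only and 6 primed-only regions, LATS2 had 14 and 0, TEAD3 had 11 and 0, and YAP1 had 4 and 12. The genome share was then 52.4%. With BRG1 alone it was 90.1%, and TEAD4 stood at 94.4%. YAP1 then had 5 naïve-only and 4 primed-only regions and AMOT had 2 and 0, so neither had more primed-only regions by BRG1. The YAP1 share was 55.6% (21.2 to 86.3%), which still lay below the genome share of 90.1%.

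Over 7 peak lists, the genes with peak densities closest to those of TEAD4 were SYT7, CDKL4 and TESK2, by Euclidean distance of log2(peaks per 100 kb + 0.5) among 20006 genes. SYT7 had 18 naïve BRG1, 17 naïve BAF155 and 7 BRM peaks, and its counts equalled those of TEAD4 in all 7 lists. Of the paralogues TEAD3 was the closest, at rank 3019, with 15.1% of genes nearer to TEAD4, and 31.7% were nearer than TEAD2 and 40.1% nearer than TEAD1. The farthest member was AMOT, with 60.4% of genes nearer.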

How the data were processed

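ChIP-seq peak lists of WIBR3 hESCs in naïve and primed culture were used. Per the methods of the study, the authors trimmed reads, aligned them to hg38 with Bowtie2 (version 2.3.4 per the labels), removed duplicates and called peaks with MACS2 against input, as broad peaks for BRG1, BRM and BAF155 and narrow peaks for SOX2. The deposited lists give positions and, except for primed BRM and the second SOX2 lists, a score, the fold over input (a ratio), and p and q values as −log10. SOX2 libraries were paired-end and the others single-end. The deposited score and −log10 p-value were not used.

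Main TSSs were MANE Select starts (19056 genes) or Ensembl canonical starts of GENCODE 44. Overlaps, counts and intervals were computed with pandas 2.3.3 and scipy 1.17.1, and overlaps were checked against bedtools 2.31.1 and on simulated data. Chromosomes 1 to 22, X and Y were used. Fold of a region is the highest fold among its BRG1 and BAF155 peaks. All 9 genes are named, with every SOX2 peak in their windows, the TEAD4 regions with BRM or SOX2, the strongest state-specific region of each class for the others, and promoter peaks. Alternatives were other flanks, overlap rules, peak thresholds, subunits and promoter widths. The members, lists and motif letters were chosen with earlier results of these data known. No p-value is given, since each group was 1 sample. Input libraries were not analysed here.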

Additional observations from a re-analysis of the deposited data

How the results depend on the processing

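No paired analysis was possible because both SOX2 lists of either state had the same peaks, and the other antibodies had 1 library per state. For the same reason, leaving out either list could not change the 4 naïve and 13 primed SOX2 peaks in the windows, and says nothing about their stability. Over 11 alternatives the TEAD4 share ranged from 66.7 to 94.4%. It stood at 94.4% with BRG1 peaks alone, where the paralogues reached 81.0% and the YAP1, WWTR1, LATS1, LATS2 and AMOT set 85.4%. With a fold of at least 3, the paralogue share fell to 41.4% and the YAP pathway share to 34.3%. With −log10 q of at least 3 they were 40.0 and 39.1%. These settings moved the genome share too, to 90.1% for BRG1 alone, 43.5% for the fold and 44.2% for −log10 q. Counting gene bodies alone gave a paralogue share of 47.6%, since only TEAD1 and TEAD3 then had state-specific regions. The log2 odds ratio of TEAD4 over its paralogues became -0.0101 with flanks of 100 kb. Its interval included 0 in 11 of 11 alternatives. Without regions on other protein-coding genes, a setting added after the data had been seen, the TEAD4 share was 82.4% and the paralogue share 60%. Of 87 recomputed shares of single genes, 67 stayed within the main interval and 20 left it. Of 23 recomputed promoter and SOX2 counts, 20 stayed within 1.5 times the main count and 3 did not. These were SOX2 at promoters, with 1 gene in the naïve and 2 in the primed list when any annotated TSS was used, and 1 in the primed list within 2 kb. With 1 library per state, the spread between libraries is unknown, and the cause of the unequal length of the BRG1 lists was not tested.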

Other observations

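A list of 22 other genes of the pathway also held a mixture of balances. Naïve-only regions outnumbered primed-only ones at 13 genes (66.2% of all genes) and primed-only ones were more numerous at 6 (21.2%), with 3 equal. The median difference was 0.506 naïve-only minus primed-only regions per 100 kb, beside 1.33 over all protein-coding genes. Of the upstream kinases and their scaffolds, TAOK3 had 20 naïve-only and 2 primed-only regions with 12 BRM peaks, TAOK1 had 15 and 1, and MOB1A, a LATS cofactor, had 14 and 1. TAOK2 had 7 and 3, and MOB1B had 5 and 4. STK3 and STK4, the human MST kinases, had 11 and 10 and 4 and 4.

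The 6 genes with more primed-only regions were PTPN14, AMOTL1, VGLL2, VGLL3, CCN1 and CCN2. AMOTL1 had 0 naïve-only and 11 primed-only regions, with 3 primed SOX2 peaks, while its relative AMOTL2 had 7 naïve-only and 5 primed-only ones. CCN1 and CCN2, well-known targets of YAP in other cells, had 2 and 5 and 0 and 3, with 2 and 3 primed SOX2 peaks. PTPN14, a phosphatase that binds YAP, had 7 and 12. VGLL2 and VGLL3, cofactors of TEAD factors, had 2 and 3 and 0 and 3. ANKRD1, another YAP target, had 2 of each. AXL, a receptor kinase also known as a YAP target, went the other way with 12 and 1. VGLL1, a TEAD cofactor of trophoblast, had no state-specific region, 1 common region and 1 naïve BRM peak.

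CATTCC was found in 200 bp at the centre of 6 of the 17 naïve-only regions of TEAD4 (13.8% of the 48336 in the genome), and in 16 of the 86 of all 9 genes (18.6%). In primed-only regions it was found in 9 of 42 (21.4%), beside 16.7% over the genome.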
